A study of Danio rerio with 10 samples.

Results

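Pharyngeal arch patterning genes were described in sorted *Tg(Mmu:Prx1-EGFP)* cells of 48 hpf zebrafish, where the transgene marks the pectoral fin but also the arches. The members were chosen by gene name and are *edn1*, *ednraa*, *ednrab*, *gsc*, *barx1*, *jag1b*, *pou3f3a*, *pou3f3b* and *emx2*. All 9 were found, each under 1 Ensembl identifier, among the 32520 genes of the count table, and all 9 were among the 20007 genes that passed a filter on low counts and were tested. RNA-seq compared 2 *prdm1a*-/- libraries, from *Tg(Mmu:Prx1-EGFP)* embryos homozygous for the *m805* allele, with 2 libraries labelled WT from *Tg(Mmu:Prx1-EGFP)* embryos, all at 48 hpf. The paper's WT strain is AB. Its Results take the embryos from intercrossed *Tg(Mmu:Prx1-EGFP)* fish heterozygous for *prdm1a*. Whether heterozygotes were among the WT embryos of these libraries is not stated, and the paper grouped heterozygotes with WT when measuring fins. The *m805* allele truncates Prdm1a within its SET domain. Both genotypes carry EGFP under a mouse *Prx1* enhancer, which at this stage is active in the pectoral fin, the pharyngeal arches and the dorsal head. Heads and arches were dissected away before sorting, each library came from pooled embryos, and mutant embryos were recognised by their pigment phenotype. The paper allows that residual tissue of the arches and dorsal head may have been left in the samples. Its RNA-seq methods mention removal of the brain only.

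The arch skeleton forms from cranial neural crest cells, which fill the arches as mesenchyme. Endothelin 1, a peptide secreted in the ventral arch, signals through endothelin type A receptors on the crest cells and specifies ventral and intermediate skeletal identities. Jagged-Notch signalling opposes it and maintains dorsal identities, and a set of homeobox genes is then switched on in separate domains of each arch. Several of these genes also have roles outside the arches, among them in the brain, blood vessels and other mesenchyme.

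Library totals lay between 20303621 and 26798799 counts. A count of 0 in a library allows up to 3 counts, or 0.115 to 0.147 CPM (read counts scaled to a common library size, with TMM factors). The targeted gene, *prdm1a*, had 2505 and 7847 counts in *prdm1a*-/- replicates 1 and 2, against 1147 and 5222 counts in WT replicates 1 and 2. Its transcript can be counted in spite of the stop codon, and the labels cannot be checked from it. The replicate numbers stood further apart than the genotypes. Principal component 1, with 73.4% of the variance, split the libraries by replicate number, and principal component 2, with 17.2%, split them by genotype. Genotypes were compared within replicate number, with edgeR's quasi-likelihood test and the number as a block, and a gene was called at a Benjamini-Hochberg adjusted p under 0.05 over all genes tested. All 10 listed fin bud genes had counts in every library, though *fgf8a* had 4 counts in WT replicate 2, close to that floor, against 348 in WT replicate 1. *tbx5a*, the T-box factor that initiates the fin, was at 66.3 and 50.2 CPM in *prdm1a*-/- replicates 1 and 2 and at 59.9 and 76.8 CPM in WT replicates 1 and 2.

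Of the 9 arch patterning genes, *gsc* (log2 fold change -1.46) and *barx1* (-0.83) were lower in *prdm1a*-/- cells, and no member was higher at the threshold. Among all genes tested 1.01% were called, 0.62% lower and 0.395% higher. At an unadjusted p under 0.05 the members called were again *gsc* and *barx1*, against 12.4% of all genes tested. The other 7 members, which include the ligand, both of its receptors and the Notch ligand, did not pass the test. In 5 members the *prdm1a*-/- library was the lower one in both replicate numbers, and in 1 member it was the higher one in both, against 29.7% and 29.8% of all genes tested. The median log2 fold change of the 9 members was -0.18, against 0.007 over all genes tested. Both calls rested on the block. Without the block edgeR called 0 members and 0 genes in all, and at an unadjusted p under 0.05 it named *gsc* (0.00328) and *barx1* (0.0446) among the members, against 1.88% of all genes tested. DESeq2 without the block also called 0 members, against 0.25% of all genes tested. In bulk libraries, fewer cells of a type and less RNA per cell cannot be told apart, and this holds for every difference given here.

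**Figure D1:**
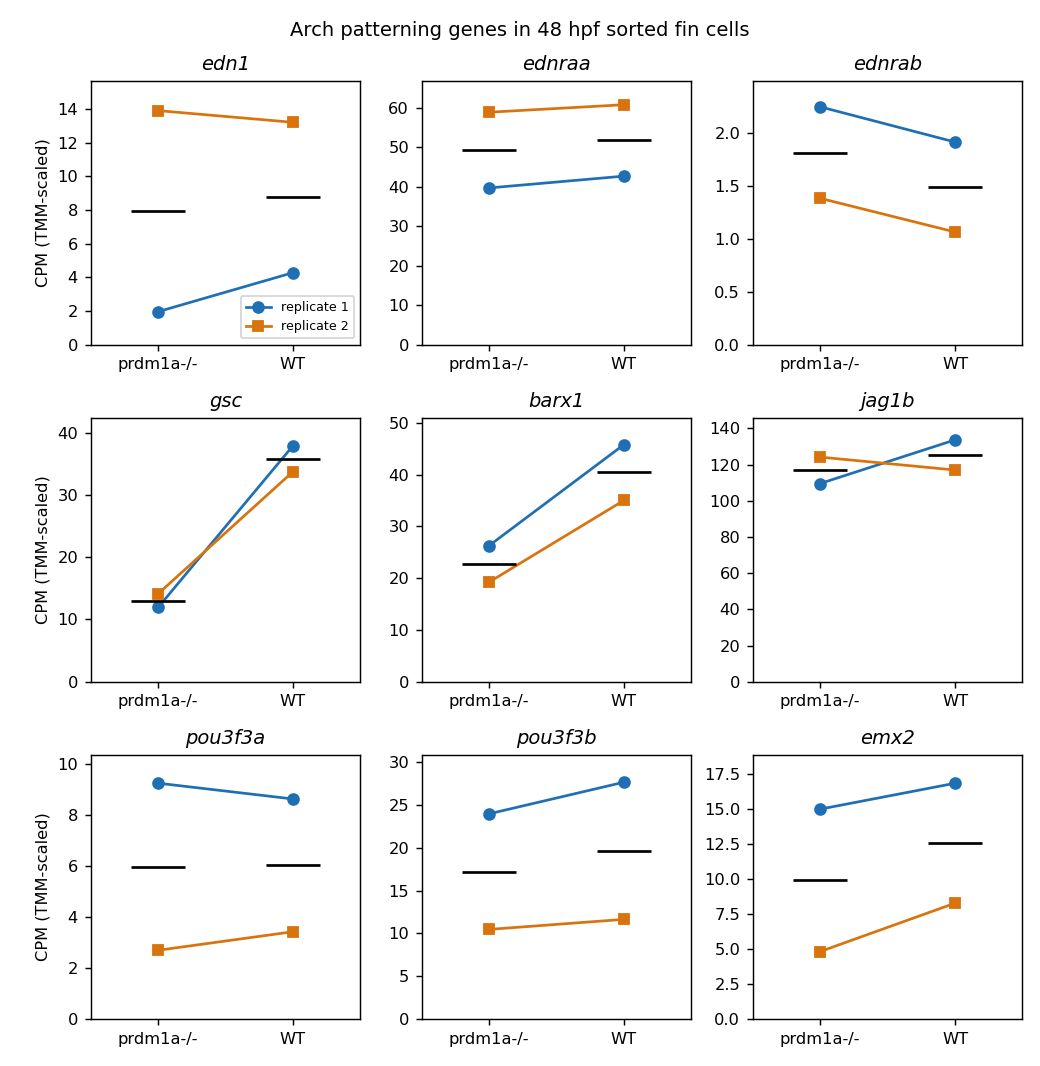
Normalised read count (CPM, linear axis from 0) of each arch patterning gene in *prdm1a*-/- libraries (left) and WT libraries (right), with a line joining the libraries of 1 replicate number and a black bar at the mean of each genotype. For *gsc* both *prdm1a*-/- libraries (11.9 and 14.1 CPM) lie well below both WT libraries (37.9 and 33.7 CPM). For *edn1*, *ednraa*, *ednrab*, *pou3f3a*, *pou3f3b* and *emx2* the replicate numbers lie further apart than the genotypes.

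*edn1* (ENSDARG00000036912) encodes endothelin 1, the ligand. It had 40 and 361 counts (1.96 and 13.9 CPM) in *prdm1a*-/- replicates 1 and 2, against 98 and 297 counts (4.27 and 13.2 CPM) in WT replicates 1 and 2. Both libraries numbered 2 were high and both numbered 1 were low, so that the genotypes overlapped. The pairs pointed in opposite directions. The log2 ratio was -1.12 in replicates 1 (95% counting interval -1.69 to -0.58) and 0.07 in replicates 2 (-0.15 to 0.30), where the counting interval covers counting error only. The fitted log2 fold change was -0.45 (95% interval -1.18 to 0.28, adjusted p = 0.644 from edgeR), so a change of the size seen in *gsc* lay outside the interval and one of the size seen in *barx1* did not.

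The endothelin type A receptors have *ednraa* (ENSDARG00000011876) and *ednrab* (ENSDARG00000062262) as their zebrafish genes. *ednraa* had 810 and 1528 counts (39.7 and 58.8 CPM) in *prdm1a*-/- replicates 1 and 2, against 978 and 1366 counts (42.6 and 60.7 CPM) in WT replicates 1 and 2. Within each number the genotypes were close, and the log2 fold change was -0.08 (95% interval -0.39 to 0.24, adjusted p = 0.892). *ednrab* was read far less deeply, with 46 and 36 counts (2.25 and 1.39 CPM) in *prdm1a*-/- replicates 1 and 2, against 44 and 24 counts (1.92 and 1.07 CPM) in WT replicates 1 and 2. It was slightly higher in the *prdm1a*-/- library of both numbers. At this depth the log2 fold change was 0.30 (95% interval -0.99 to 1.59, adjusted p = 0.893). The interval holds a change of the size of that of *barx1* in either direction, and an increase of the size of the change of *gsc*.

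*gsc* (ENSDARG00000059073) encodes Goosecoid, a homeodomain transcription factor of the arch mesenchyme that acts downstream of endothelin signalling in the ventral arch. It had 244 and 367 counts (11.9 and 14.1 CPM) in *prdm1a*-/- replicates 1 and 2, against 869 and 759 counts (37.9 and 33.7 CPM) in WT replicates 1 and 2. Both *prdm1a*-/- libraries were low and both WT libraries high, with no overlap. The level was 13.0 ± 1.54 CPM in *prdm1a*-/- and 35.8 ± 2.94 CPM in WT libraries (mean ± SD, n = 2 each). On the log2 scale *prdm1a*-/- over WT came to -1.46 (SE 0.19, edgeR adjusted p = 0.00481), so that the transcript was 2.75-fold higher in WT. It ranked 65th by p among all genes tested. Within replicate numbers the log2 ratio was -1.66 in replicates 1 (counting interval -1.88 to -1.46) and -1.25 in replicates 2 (-1.44 to -1.07). Replicates 2 over replicates 1 gave this gene a log2 fold change of 0.03 (SE 0.19). *gsc* was called under all 5 other settings that kept the replicate block, at adjusted p-values from 1.48e-05 to 0.0167. With genotype as the only term its log2 fold change was again -1.46, but edgeR gave an adjusted p of 0.9999 and DESeq2 gave 0.0513. RefSeq places a long non-coding RNA gene over the span of *gsc*, and likewise of *barx1* and *pou3f3b*, and reads of such pairs could not be told apart here.

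*barx1* (ENSDARG00000007407) encodes a homeodomain factor of arch mesenchyme that promotes cartilage and tooth formation and holds back joint fates. It had 537 and 500 counts (26.3 and 19.2 CPM) in *prdm1a*-/- replicates 1 and 2, against 1050 and 788 counts (45.8 and 35.0 CPM) in WT replicates 1 and 2. Both *prdm1a*-/- libraries again lay below both WT libraries, a separation shown by 2 of the 9 members and by 13.5% of all genes tested. No member had both *prdm1a*-/- libraries above both WT libraries, against 12.7% of all genes tested, so that 26.2% of all genes were separated in either direction. The means were 22.8 ± 4.98 CPM in *prdm1a*-/- and 40.4 ± 7.61 CPM in WT libraries (SD, n = 2 each). This amounted to a log2 fold change of -0.83 (SE 0.16, edgeR adjusted p = 0.0464), or 1.78-fold higher in WT. The pairs were close to each other, with a log2 ratio of -0.80 in replicates 1 (counting interval -0.95 to -0.65) and -0.86 in replicates 2 (-1.03 to -0.70). The call stood near the threshold: with the block, edgeR with RLE size factors gave an adjusted p of 0.0803 and DESeq2 gave 0.0721. Without the block edgeR's adjusted p was 0.9999 at a log2 fold change of -0.83.

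**Figure D2:**
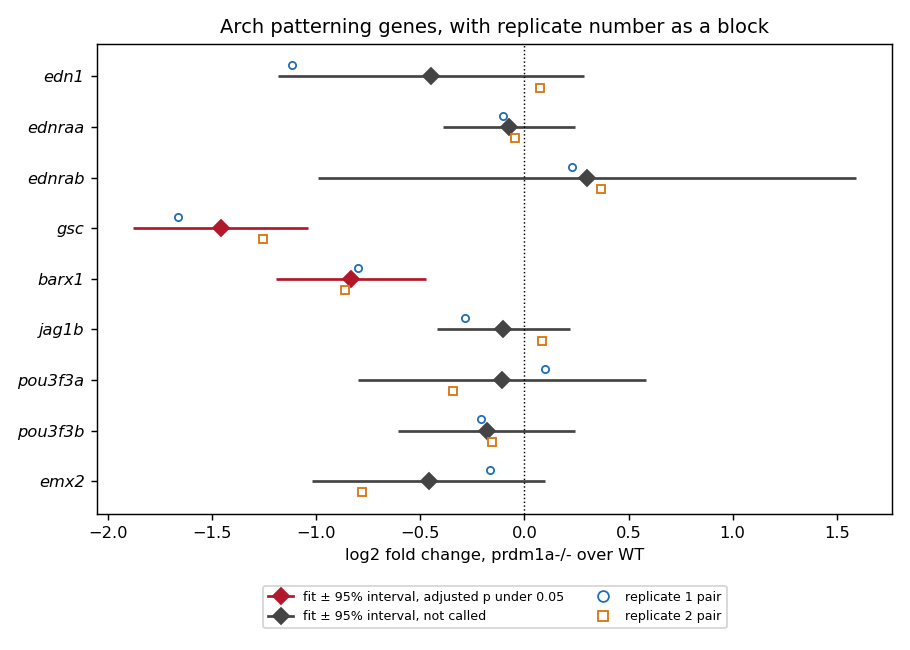
Log2 fold change of *prdm1a*-/- over WT for each arch patterning gene, with the replicate number as a block (diamonds, with 95% intervals of the fit) and the ratio within each replicate number (open circles for replicates 1, open squares for replicates 2). Red marks the genes called at an adjusted p under 0.05, *gsc* at -1.46 and *barx1* at -0.83, and the intervals of the other 7 genes include 0.

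*jag1b* (ENSDARG00000013168) encodes the Jagged ligand whose Notch signal maintains dorsal identity in the zebrafish arches. It was the most deeply read of the 9 genes, with 2238 and 3226 counts (109.6 and 124 CPM) in *prdm1a*-/- replicates 1 and 2, against 3066 and 2633 counts (134 and 117 CPM) in WT replicates 1 and 2. The genotypes overlapped and the pairs differed in direction, with log2 ratios of -0.29 in replicates 1 and 0.09 in replicates 2. Its log2 fold change was -0.10 (95% interval -0.42 to 0.22, adjusted p = 0.843), an interval that holds neither the value of *gsc* nor that of *barx1*.

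*pou3f3a* (ENSDARG00000042032) and *pou3f3b* (ENSDARG00000095896) encode POU-homeodomain factors that mark dorsal arch mesenchyme and are also expressed in the brain. *pou3f3a* had 189 and 70 counts (9.25 and 2.69 CPM) in *prdm1a*-/- replicates 1 and 2, against 198 and 77 counts (8.63 and 3.42 CPM) in WT replicates 1 and 2. *pou3f3b* had 490 and 272 counts (24.0 and 10.5 CPM) in *prdm1a*-/- replicates 1 and 2, against 635 and 262 counts (27.7 and 11.6 CPM) in WT replicates 1 and 2. For both genes the libraries numbered 1 were high in either genotype and those numbered 2 low. The log2 fold changes of *prdm1a*-/- over WT were -0.11 for *pou3f3a* (95% interval -0.80 to 0.58, adjusted p = 0.935) and -0.18 for *pou3f3b* (-0.61 to 0.24, adjusted p = 0.772).

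*emx2* (ENSDARG00000039701) encodes a homeodomain factor of the forebrain and urogenital system that is also found in dorsal arch mesenchyme. It had 306 and 125 counts (14.98 and 4.81 CPM) in *prdm1a*-/- replicates 1 and 2, against 386 and 186 counts (16.8 and 8.27 CPM) in WT replicates 1 and 2. The *prdm1a*-/- library was the lower one of each number, by a log2 ratio of -0.17 in replicates 1 (counting interval -0.39 to 0.05) and -0.78 in replicates 2 (-1.12 to -0.45). The genotypes overlapped, and the log2 fold change was -0.46 (95% interval -1.02 to 0.10, adjusted p = 0.504).

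The 9 genes differed in how far they moved with the replicate number. In the same fit, 5 of the 9 members differed between replicates 2 and replicates 1 at an adjusted p under 0.05, against 24.7% of all genes tested. *edn1* and *ednraa* were higher in replicates 2, with log2 fold changes of replicates 2 over replicates 1 of 2.19 (SE 0.34, adjusted p = 9.41e-04) and 0.54 (SE 0.14, adjusted p = 0.0198). Of all genes tested, 14.1% were higher in replicates 2 at this threshold. *pou3f3a* (-1.55), *pou3f3b* (-1.22) and *emx2* (-1.33) were lower in replicates 2, at adjusted p-values from 0.00107 to 0.00501, against 10.6% of all genes tested. *barx1* (-0.42, adjusted p = 0.0879), *ednrab* (-0.77, adjusted p = 0.387), *jag1b* (-0.01, adjusted p = 0.984) and *gsc* (0.03, adjusted p = 0.932) did not pass this test. Neither the labels nor the methods say what the replicate numbers stand for, and with 1 library of each genotype per number this is a difference between libraries. Marker genes moved with the numbers too. All 6 skeletal muscle genes listed were called lower in replicates 2, and summed to 6873 and 1964 CPM in *prdm1a*-/- replicates 1 and 2, against 7845 and 1008 CPM in WT replicates 1 and 2. Of 11 neuron and brain genes 4 were lower in replicates 2, and of 5 epidermal genes 2 were higher and 2 lower. Cranial neural crest had 3 of 9 genes higher and 4 lower, and fin bud had 6 of 10 lower. Pharyngeal endoderm had 3 of 5 tested genes lower, and vessel and mural cells had 1 of 8 higher and 3 lower. Pigment cells had 2 of 6 lower, and blood and macrophages 1 of 6. Among all genes tested, 14.1% were higher and 10.6% lower. Their part in the replicate difference of the members was not tested.

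**Figure D3:**
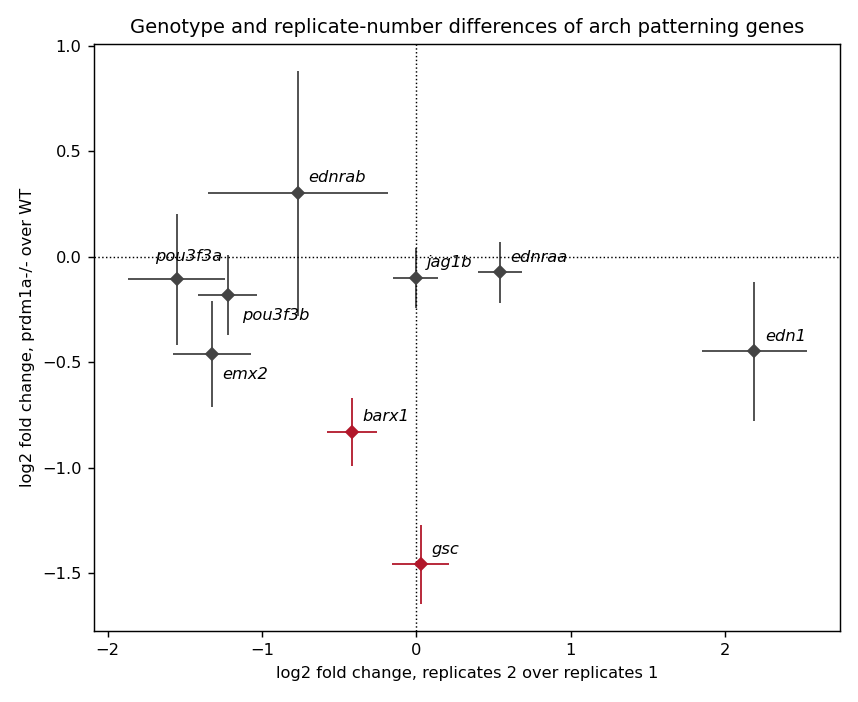
Log2 fold change of replicates 2 over replicates 1 (x axis) against that of *prdm1a*-/- over WT (y axis) for each arch patterning gene, from the same fit, with SE bars and the genes called between genotypes in red. *gsc* sits at 0.03 on the x axis and -1.46 on the y axis, whereas *edn1* sits furthest right at 2.19 and *pou3f3a*, *pou3f3b* and *emx2* lie together at the left, between -1.55 and -1.22.

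The members' profiles over the 4 libraries were compared by the Euclidean distance of log2 CPM centred on each gene's mean, which is a description of 4 points. The closest pair was *pou3f3a* and *pou3f3b*, at a distance of 0.33, followed by *pou3f3a* and *emx2* at 0.38 and *pou3f3b* and *emx2* at 0.42. *gsc* and *barx1* lay 0.79 apart, and the furthest pair was *edn1* and *pou3f3a*, at 3.54. Among all genes tested, those closest to *gsc* were CABZ01075521.1 at 0.14, *ftr06* at 0.19 and *hoxb5a* at 0.19. CABZ01075521.1 and *ftr06* had at most 44 and 21 counts in any library, where the 0.5 CPM added before the logarithm draws profiles together. *hoxb5a*, a Hox gene, was at 19.6 and 19.9 CPM in *prdm1a*-/- replicates 1 and 2, against 61.9 and 49.6 CPM in WT replicates 1 and 2 (log2 fold change -1.49, edgeR adjusted p = 0.00253). As *hoxb5a* was picked for a profile like that of *gsc* in these same libraries, its fold change and p-value are not separate evidence.

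Other genes of the endothelin pathway were called by edgeR in neither direction. Of 15 genes listed, 13 were tested, and the median log2 fold change was -0.02. An unadjusted p under 0.05 was reached by 3, against 12.4% of all genes tested. The list held further ligands and receptors, the enzymes that process the peptide, and intracellular mediators. *mef2ca*, a transcription factor that transmits endothelin signals in the zebrafish arches, was at 114 and 124 CPM in *prdm1a*-/- replicates 1 and 2, against 131 and 115 CPM in WT replicates 1 and 2 (log2 fold change -0.04, adjusted p = 0.940). *furina*, which encodes a protease that cleaves the endothelin precursor, was at 64.8 and 63.9 CPM in *prdm1a*-/- replicates 1 and 2, against 50.3 and 45.9 CPM in WT replicates 1 and 2. Its libraries did not overlap, but its log2 fold change of 0.42 did not pass the test (adjusted p = 0.246). *ednrba*, chosen after its values were seen, encodes an endothelin type B receptor known from pigment cells. It had 4 and 4 counts in *prdm1a*-/- replicates 1 and 2, against 74 and 37 counts in WT replicates 1 and 2. Its log2 fold change was -3.70 (adjusted p = 0.0661), and DESeq2 called it both with the block (0.0367) and without (0.03996), as did edgeR without a filter on low counts (0.00798).

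Of 15 other genes of the Jagged-Notch pathway, all were tested and edgeR called none, nor did DESeq2 with the block. An unadjusted p under 0.05 was reached by 3 in edgeR, against 12.4% of all genes tested, and the median log2 fold change was -0.05. The receptor genes *notch2* and *notch3* had the highest CPM. *notch2* was at 384 and 512 CPM in *prdm1a*-/- replicates 1 and 2, against 406 and 612 CPM in WT replicates 1 and 2 (log2 fold change -0.17, adjusted p = 0.683). *notch3* was at 356 and 259 CPM in *prdm1a*-/- replicates 1 and 2, against 444 and 326 CPM in WT replicates 1 and 2 (log2 fold change -0.33, adjusted p = 0.352). For both receptors the *prdm1a*-/- library was the lower one of each number, and the libraries of the genotypes overlapped.

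Of 19 other transcription factors and cofactors known from the arches, *tbx1* and *eya1* were lower in *prdm1a*-/- cells, and none was higher at the threshold. The remaining 17 did not pass the test, where 0.62% of all genes tested were called lower. At an unadjusted p under 0.05 there were 13 of the 19, against 12.4% of all genes tested. This count rested on the block. Without the block the smallest unadjusted p of the 19 in edgeR was 0.124, for *foxf1*, where 1.88% of all genes tested were under 0.05. The median log2 fold change of the 19 was -0.44, and 14 of them were lower in the *prdm1a*-/- library of both replicate numbers, against 29.7% of all genes tested. Between replicate numbers 14 of the 19 were called, against 24.7% of all genes tested, and 12 of them were lower in replicates 2, against 10.6%. *tbx1*, a T-box factor of the pharyngeal region needed for arch segmentation and head muscle, was at 43.3 and 9.66 CPM in *prdm1a*-/- replicates 1 and 2, against 110.4 and 40.9 CPM in WT replicates 1 and 2. It fell within each number, by log2 ratios of -1.35 in replicates 1 and -2.08 in replicates 2, giving a fitted value of -1.70 (SE 0.19, edgeR adjusted p = 0.00253). *eya1*, a transcriptional cofactor and phosphatase of placodes and arch mesenchyme, was at 105.5 and 61.5 CPM in *prdm1a*-/- replicates 1 and 2, against 177 and 104 CPM in WT replicates 1 and 2. The fit gave -0.75 (SE 0.13, edgeR adjusted p = 0.0266), and each pair gave -0.75 as well. In both genes replicate 1 of *prdm1a*-/- lay above WT replicate 2, so the genotypes overlapped across numbers though not within them. Without the block neither gene was called, and with RLE size factors and the block the adjusted p of *eya1* was 0.0548. *nr2f5*, a nuclear receptor of dorsal arch mesenchyme and with *eya1* the factor of highest CPM, did not pass (log2 fold change -0.30, adjusted p = 0.394).

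**Figure D4:**
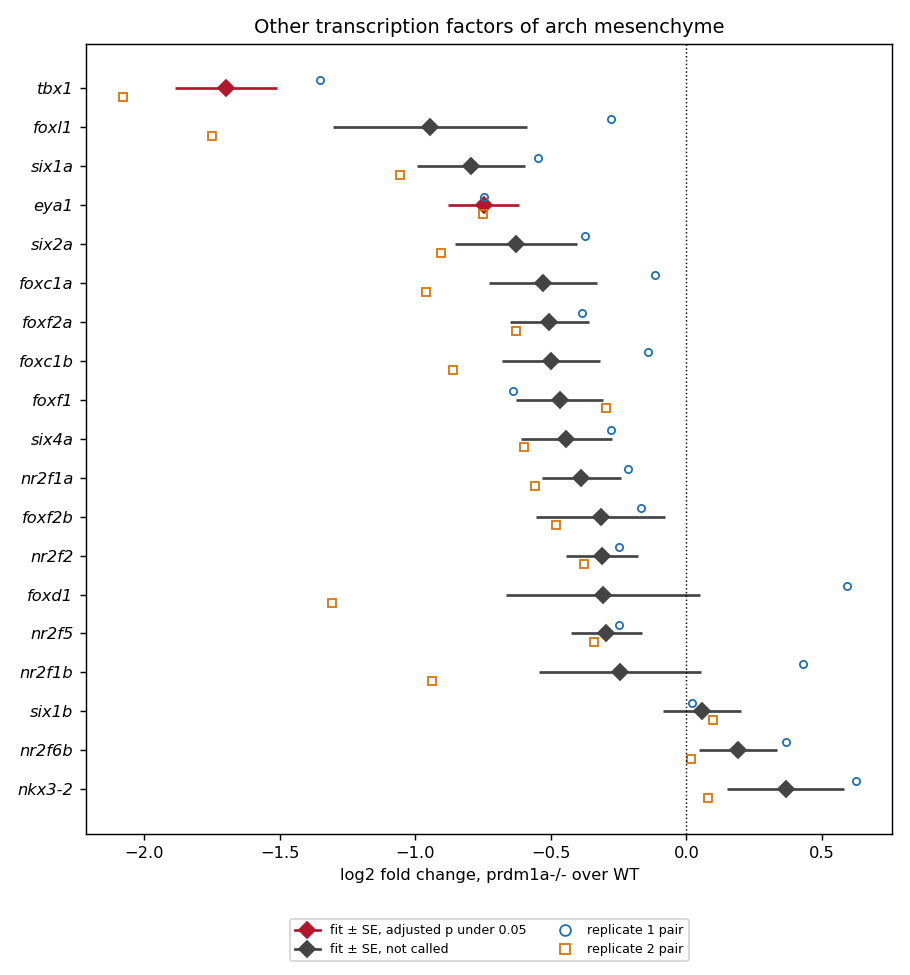
Log2 fold change of *prdm1a*-/- over WT for 19 other transcription factors and cofactors of the arches, ordered by value, with the replicate number as a block (diamonds with SE bars) and the ratio within each replicate number (open circles for replicates 1, open squares for replicates 2). *tbx1* at -1.70 and *eya1* at -0.75 are marked in red as called at an adjusted p under 0.05, and the diamonds of 16 genes lie left of 0.

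Of 7 paralogs of the members, all were tested and edgeR called none, nor did DESeq2 with the block. An unadjusted p under 0.05 was reached by 1 in edgeR, against 12.4% of all genes tested. *jag1a*, the paralog of *jag1b*, was at 19.7 and 12.7 CPM in *prdm1a*-/- replicates 1 and 2, against 9.07 and 13.4 CPM in WT replicates 1 and 2 (log2 fold change 0.52, adjusted p = 0.516). *pou3f1* had a log2 fold change of -0.23 (adjusted p = 0.770). *emx3*, named after its values were seen, had the largest difference of the 7, with 1.37 and 7.16 CPM in *prdm1a*-/- replicates 1 and 2, against 5.15 and 16.0 CPM in WT replicates 1 and 2 (log2 fold change -1.48, adjusted p = 0.0618). With the block, *emx3* was called by limma-voom (0.0431) and by edgeR without a filter on low counts (0.00462) or with at least 10 counts in every library (0.0430).

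Markers of other cell types moved with the genotype beside these genes, where 0.62% of all genes tested were called lower. Of 9 cranial neural crest genes, *sox10* (log2 fold change -0.96, adjusted p = 0.0273) and *dlx2a* (-1.28, adjusted p = 0.0319) were called lower. The other 7 did not pass, though the fitted values of all 9 were below 0, with a median of -0.56. In 5 of the 9 the *prdm1a*-/- library was the lower one in both replicate numbers, against 29.7% of all genes tested. No gene of this list was at 0, and the list summed to 270 and 277 CPM in *prdm1a*-/- replicates 1 and 2, against 336 and 379 CPM in WT replicates 1 and 2. *tfap2a*, *twist1a* and *twist1b* made up most of each sum, at 121, 63.1 and 50.7 CPM in WT replicate 1. Of 11 neuron and brain genes, *elavl3* (-0.81, adjusted p = 0.0306) and *neurod1* (-1.83, adjusted p = 0.00336) were called lower. The other 9 did not pass, and the fitted values of *sox2* (0.36), *snap25a* (0.19), *otx2b* (0.16) and *sox3* (0.15) were above 0, while 7 of the 11 were below it. The list summed to 175 and 127 CPM in *prdm1a*-/- replicates 1 and 2, against 223 and 255 CPM in WT replicates 1 and 2. Of 6 pigment cell genes, *gch2*, *tyrp1b*, *pmela* and *pnp4a* were called lower, and the sums were 25.9 and 36.0 CPM in *prdm1a*-/- replicates 1 and 2, against 131 and 108 CPM in WT replicates 1 and 2, in embryos whose genotype was itself read from pigment. Without the block edgeR called none of the crest, neuron and pigment genes, and DESeq2 called *neurod1* (adjusted p = 0.0231) and *pnp4a* (0.0338) of them. The part of crest, neuron and pigment cells in the lower levels of *gsc*, *barx1*, *tbx1* and *eya1* was not tested. Of 10 fin bud genes, *hand2*, which also acts downstream of endothelin in the ventral arch, was called lower (-1.12, adjusted p = 0.00525). The other 9 did not pass. Fitted values of *and1* (0.32), *fgf10a* (0.27), *and2* (0.21), *shha* (0.07) and *prrx1a* (0.02) were above 0, while 5 of the 10 were below it. The sums were 8222 and 4518 CPM in *prdm1a*-/- replicates 1 and 2, against 8706 and 3245 CPM in WT replicates 1 and 2. Most of each sum came from *and1* and *and2*, at 4241 and 3204 CPM in *prdm1a*-/- replicate 1. Of 6 pharyngeal endoderm genes, 5 were tested, none was called or reached an unadjusted p under 0.05, and *foxe1* was at 0 in all 4 libraries. The sums of this list were 53.0 and 18.6 CPM in *prdm1a*-/- replicates 1 and 2, against 43.9 and 16.0 CPM in WT replicates 1 and 2. None of the 8 vessel and mural, 6 skeletal muscle, 5 epidermal and 6 blood and macrophage genes listed was called by edgeR between genotypes, and none was at 0 in all 4 libraries. In that order 1, 3, 2 and 1 of them reached an unadjusted p under 0.05, against 12.4% of all genes tested. The muscle genes *tnnt3b*, *myog* and *myod1* and the epidermal genes *cdh1* and *krt5* were higher in *prdm1a*-/- cells, and *notch3* and *csf1ra* were lower. These lists hold no further gene under that p. The epithelial cadherin gene *cdh1* was called higher in *prdm1a*-/- cells by DESeq2 (adjusted p = 0.0441) and limma-voom (0.0151) with the block, where edgeR gave a log2 fold change of 0.63 (adjusted p = 0.0673). The vessel and mural genes summed to 621 and 554 CPM in *prdm1a*-/- replicates 1 and 2, against 667 and 646 CPM in WT replicates 1 and 2. *notch3*, also in the Jagged-Notch list, gave the largest part of each sum. Both *prdm1a*-/- libraries lay above both WT libraries in 3 of the 8 genes (*cdh5*, *pecam1* and *tie1*), against 12.7% of all genes tested. They lay below in 1 (*kdrl*), against 13.5%. Blood and macrophage genes summed to 59.0 and 32.6 CPM in *prdm1a*-/- replicates 1 and 2, against 56.0 and 48.6 CPM in WT replicates 1 and 2.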

How the data were processed

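Read counts per gene from 4 RNA-seq libraries (2 *prdm1a*-/- and 2 WT, 48 hpf) were analysed. The deposited counts are whole numbers without normalization, which the authors obtained by trimming read pairs, aligning them to danRer11 with STAR (2.7.10b) and counting with featureCounts (options and gene models: not given in the sources used here). Library preparation kept strand, but whether counting used it is not stated. In RefSeq's GRCz12tu gene table the spans of *barx1*, *gsc* and *pou3f3b* overlap long non-coding RNA genes, whose reads could not be told apart. Coordinates were not used. The authors' table also holds log2 normalised values in 4 columns and their own fold changes, standard errors, test statistics, p-values and mean counts, none of which were used. The 6 CUT&RUN samples (24 hpf) were not analysed here.

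In R 4.3.3, genes were filtered with filterByExpr of edgeR 4.0.16 (at least 10 counts, 15 in total), TMM-normalised and given edgeR's two-sided quasi-likelihood test with genotype and replicate number as terms and Benjamini-Hochberg adjustment over all genes tested. The block leaves 1 residual degree of freedom, and the variance was moderated across genes. Labels share replicate numbers and a T1 or T2 prefix between genotypes but do not say what the numbers mark. The replicate differences of the genotypes were correlated across genes (r = 0.77), which are not independent, and the common dispersion was 0.0446 with the block and 0.255 without. With the block, p-values measure how far the pairs of pools disagree in the genotype ratio, with variance borrowed from other genes. The spread between pools of 1 genotype enters only without the block. Pair ratios had 0.5 counts added. Their exact (Clopper-Pearson) 95% intervals cover counting error only. The alternatives were no block, DESeq2 (1.42.0), limma-voom (limma 3.58.1), RLE size factors, other filters and leaving out each library. DESeq2 without the block was added after the values were seen. Scripts were tested on simulated data.

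Members and lists were chosen with earlier results of these data known. Named were all 9 members and, of each list, the called genes, of each pathway list also the 2 of highest mean CPM, and the 3 genes closest in profile to the member with the smallest p. *nkx3.2* stands as *nkx3-2* in the table, and *edn3a* was not analysed here. One further listed gene is not reported here.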

Additional observations from a re-analysis of the deposited data

How the results depend on the processing

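With the replicate block, 5 alternatives were followed in 18 genes. These were the 9 members and, of each pathway list, the called genes and the 2 of highest mean CPM. No direction changed among the 18. The alternatives changed 3 of 90 calls, those of *barx1* with DESeq2 and with RLE size factors and that of *eya1* with RLE size factors. Genes outside the 18 also changed call, among them *ednrba*, *emx3* and *cdh1*, as given above. With the block, DESeq2 also called *dct* lower (adjusted p = 0.0287), and edgeR without a filter called *six1a* lower (0.0264). Limma-voom with the block called *stmn1b* (0.0387) and *fgf8a* (0.0369) lower. The pairs of *fgf8a* pointed in opposite directions, with log2 ratios of -2.87 in replicates 1 and 1.83 in replicates 2. All genes called numbered 203 with edgeR and the block, 434 with limma-voom and the block, 128 with RLE size factors and 636 without a filter. With no replicate block edgeR called 0 genes (376 at an unadjusted p under 0.05) and DESeq2, added after the values were seen, called 50. Members called lower numbered 2 with the block, 1 with DESeq2 or RLE size factors, and 0 with no block by either tool. Other pathway genes called numbered 2 with edgeR and the block. With the block they numbered 3 with DESeq2, limma-voom or a minimum of 10 counts in every library, 5 without a filter and 1 with RLE size factors. With no block they numbered 0 by edgeR and 1 by DESeq2. Leaving out 1 library at a time was possible only without the block, since the block would leave no residual degrees of freedom. It gave 0 calls among all genes (258 to 385 at an unadjusted p under 0.05), the members and the pathway genes. By construction the replicate numbers are then unequal between genotypes. *gsc* stayed between -1.59 and -1.34 on the log2 scale, *barx1* between -1.07 and -0.62, *tbx1* between -2.97 and -0.63 and *eya1* between -1.19 and -0.31. The direction changed for *edn1* (-2.16 to 0.89, with 0.67 without *prdm1a*-/- replicate 1), *ednraa* (-0.38 to 0.21, 0.19 without *prdm1a*-/- replicate 1), *ednrab* (-0.11 to 0.77, -0.0806 without WT replicate 2), *jag1b* (-0.20 to 0.00137), *pou3f3a* (-1.16 to 0.80, 0.62 without *prdm1a*-/- replicate 2), *pou3f3b* (-0.91 to 0.57, 0.28 without *prdm1a*-/- replicate 2), *emx2* (-1.38 to 0.26, 0.25 without *prdm1a*-/- replicate 2), *mef2ca* (-0.14 to 0.06, 0.0153 without *prdm1a*-/- replicate 1 and 0.0562 without WT replicate 1), *notch2* (-0.45 to 0.14, 0.00729 without *prdm1a*-/- replicate 1) and *pou3f1* (-0.45 to 0.02, 0.0183 without WT replicate 1). Among the 9 members depth limits *ednrab* most, with 24 to 46 counts in each library.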
